A study of Homo sapiens with 10 samples.

Results

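Messenger RNA of 8 regulators of the integrated stress response was measured in HEK293T, an established line of human embryonic kidney origin, after 24 h in media that differed in cysteine. The 8 genes were chosen by name as members of this pathway, with earlier results of these data known. The deposited table holds 78894 gene IDs, these 8 among them. They are ATF4, ATF5, ATF3, CEBPB, CEBPG, DDIT3, TRIB3 and NUPR1. The first 6 encode transcription factors of the bZIP family, which bind DNA as dimers through a basic region and a leucine zipper. The other members are cofactors, since TRIB3 is a pseudokinase and NUPR1 a small disordered chromatin-associated protein, and neither is a bZIP factor.

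The integrated stress response starts when stress-sensing kinases phosphorylate the translation initiation factor eIF2alpha, which lowers protein synthesis in general. GCN2 senses uncharged tRNA, PERK senses unfolded protein in the endoplasmic reticulum, HRI senses heme shortage and mitochondrial stress, and PKR senses double-stranded RNA. A few mRNAs, those of ATF4 and ATF5 among them, are then translated more, and ATF4 switches on genes of amino acid uptake, amino acid synthesis and tRNA charging together with further regulators. RNA-seq measures the mRNA and not this step of translation.

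The libraries fall into 3 groups by medium, with 2 from cysteine-free medium (0X), 4 from complete medium (1X) and 4 from medium with excess cysteine (10X). The study's legend gives 3 independent replicates for its comparison of complete with cysteine-free medium, which differs from these labels. All cells were of the same line, and the labels name no engineered allele. The study's methods describe more than 1 cysteine protocol. For RNA-seq they refer back only to an amino acid starvation treatment. In the one that includes an excess medium, the base medium lacked both cysteine and methionine and had methionine added back in every group. The one whose heading names amino acid starvation includes no excess medium. There, starved cells had dialyzed serum and controls complete DMEM. Differences of serum or base medium cannot be told apart from those of cysteine if that one was used. The labels call the libraries biological replicates but do not say how the cultures were separated, so p-values measure the spread between these libraries. The libraries held between 34836014 and 61654861 recovered gene reads (median 40850704), and no pair of replicates differed by as little as sampling noise, with a chi-square per degree of freedom of 3.53 to 14.7. All 7 markers known for HEK293 lines had values of 10 or more in every library, while 5 markers of blood, vessel and liver cells summed to 11.4 to 30.9, with CD3E and HBB at 0 in every library. Mitochondrial genes took 4.51 to 5.05% of reads in complete medium, 5.15 to 5.71% in cysteine-free medium and 0.117 to 0.146% in excess medium. The part of this shift in the differences of the excess libraries was not tested.

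The best known DNA element of this pathway is the C/EBP-ATF response element, at which ATF4 binds as a dimer with a C/EBP factor. It was searched as TGATGNAA on both strands of the GRCh38 genome (hg38) within 500 bases on each side of the start of each gene's canonical transcript in GENCODE release 44. Of the 8 genes, 5 held the stricter form TGATGCAA in this window, with 8 matches in all, and it was present in 1.68% of the windows of 26067 tested genes, while the looser form was present in 8.84%. The stricter form and the window were chosen after the values had been seen. The sites are shown because they lie near the starts of the genes that the results turn on. Each is read 5′ to 3′ along the strand of the gene, with the element in capitals (TTGCATCA where it lies on the other strand).
ATF3, chr1:212608547-212608576, 203 bases upstream of the start: cctccccgaacTTGCATCAccagtgccccc
ATF3, chr1:212608729-212608758, 21 bases upstream: tataaaaggggTGATGCAAcgctctccaag
NUPR1, chr16:28539047-28539076, minus strand, 91 bases upstream: aaggggccagaTTGCATCAgacagggcctg
DDIT3, chr12:57520802-57520831, minus strand, 306 bases upstream: gttgccaaacaTTGCATCAtccccgccccc
CEBPG, chr19:33374060-33374089, 362 bases downstream: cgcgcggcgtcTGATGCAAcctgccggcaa
TRIB3, chr20:380881-380910, 132 bases downstream: ttagctccggtTTGCATCAcccggaccggg
TRIB3, chr20:380914-380943, 165 bases downstream: ttagctccggtTTGCATCAcccggaccggg
TRIB3, chr20:380947-380976, 198 bases downstream: ttagctccggtTTGCATCAcccggaccggg
CEBPB, chr20:50192385-50192414, 1566 bases downstream: ggtttcgaagtTGATGCAAtcggtttaaac

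TRIB3 carried the same 30 bases 3 times, spaced 33 bases apart, in a noncoding exon of its canonical transcript. No other window among the 26067 held 3 or more separate matches of the stricter form, so TRIB3 was the 1 window of this kind (0.00384%). The ATF3, NUPR1 and DDIT3 sites lay upstream of the canonical transcript, and the CEBPG site lay outside its exons. The CEBPB match lay outside the window, in the noncoding part of its single exon, and was also added after the values had been seen. Only for CEBPB was the gene searched beyond the window, so no share of all genes can be set beside that match. ATF4 and ATF5 had no match in the window, which says only that these letters are absent there.

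**Figure D1:**
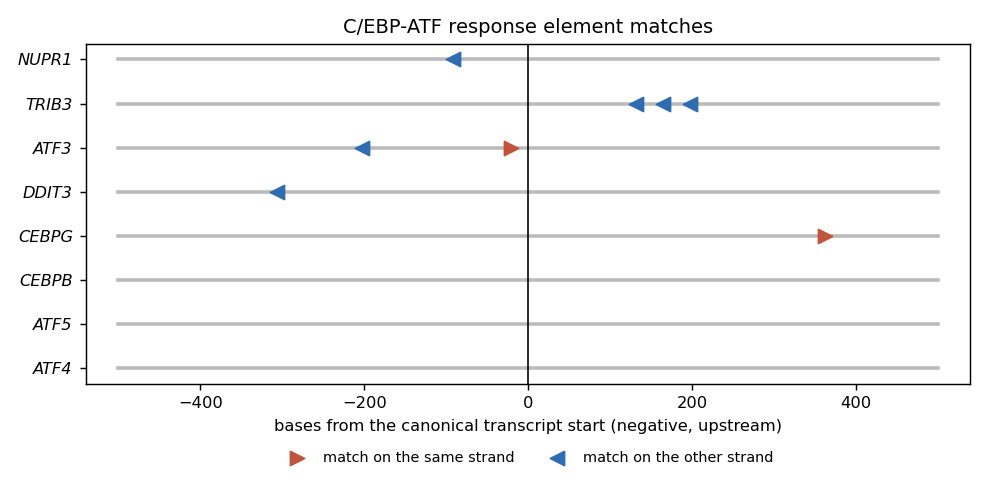
Positions of TGATGCAA matches in bases from the start of the canonical transcript for the 8 genes, with negative values upstream, grey lines for the window of 500 bases on each side, and triangles pointing right for the gene's strand and left for the other strand. TRIB3 has 3 evenly spaced matches, ATF3 has 2, and CEBPB, ATF5 and ATF4 have none in the window.

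The RefSeq promoter windows, which hold 250 bases before and 50 after each annotated start (GRCh38.p14), are shorter, start elsewhere for several genes, and were searched for the looser form. Sequences were present for 7 of the 8 genes, in 16 windows, with no entry for NUPR1. The TRIB3 windows begin at chr20:381045, 381056 and 381093, beyond the repeats shown above. Those repeats therefore lie upstream of the RefSeq starts of TRIB3, though downstream of its canonical start. TGATGNAA matched in 2 of the 16 windows, from ATF3 and CEBPG, and in 3.62% of all 35116 windows. The CEBPG match is the site shown above, which lies upstream of that RefSeq start. The ATF3 match lies in the window chr1:212565157-212565456 and is neither of the ATF3 sites shown above. The CCAAT box (CCAAT, either strand) matched in 6 windows of 4 genes, namely ATF3, DDIT3, CEBPG and CEBPB, beside 34.6% of all windows. The cyclic AMP response element TGACGTCA matched in 0 of the 16 and in 1.85% of all windows. The motifs were searched separately, and none contains another.

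Cells that had been without cysteine for 24 h had more mRNA of all 8 regulators than cells in complete medium. NUPR1 stood far apart with a rise of 11.0-fold, TRIB3 and CEBPB about doubled, and ATF4 moved least, by 1.18-fold. For all 8 the groups did not overlap, but the share of all tested genes without overlap was not counted. Genes that did not pass, ATF7 and BACH1 among them, also had groups that did not overlap. All 8 passed the test (limma on log2 of the normalized count plus 1, Benjamini-Hochberg adjusted p of 0.01 or less over 29045 genes). The count of 8 became 6 without cysteine-free replicate 1 and 5 without cysteine-free replicate 2, with the lost calls named beside each gene. In the same comparison 15.9% of all tested genes were called, and 7.39% were called higher. That background of 4618 genes itself became 1198 and 978 without cysteine-free replicate 1 and 2, 2968 and 2795 without complete replicate 1 and 2, and 6300 without complete replicate 3. The median log2 fold change of the 8 was 0.94, beside 0.00 over all tested genes.

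In excess cysteine all 8 were again higher than in complete medium, most of them by more than in cysteine-free medium. The 8 rises ran from 1.39-fold for ATF4 to 11.2-fold for NUPR1, and 7 of the 8 were at least 2-fold. Of the 29045 tested genes, 864 rose by more than ATF5, the smallest of these 7. This comparison moved a large part of the transcriptome, with 46.0% of tested genes called and 23.1% called higher, so a call alone says little here and the sizes carry the description. The median log2 fold change of the 8 was 2.30, beside 0.01 over all tested genes. When libraries were scaled to equal totals, the share of called genes that were higher went from 50.3% to 61.8%, and the median difference over genes whose mean was at least 100 shifted from -0.02 to 0.08 on the log2 scale. The 8 differences from complete medium kept their direction and their call under that scaling. Both comparisons use the same complete libraries, so their values are given side by side for each gene and the media are compared directly further on. Cell numbers were not measured, and in bulk RNA a change in all cells cannot be told apart from a change in the make-up of the culture.

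**Figure D2:**
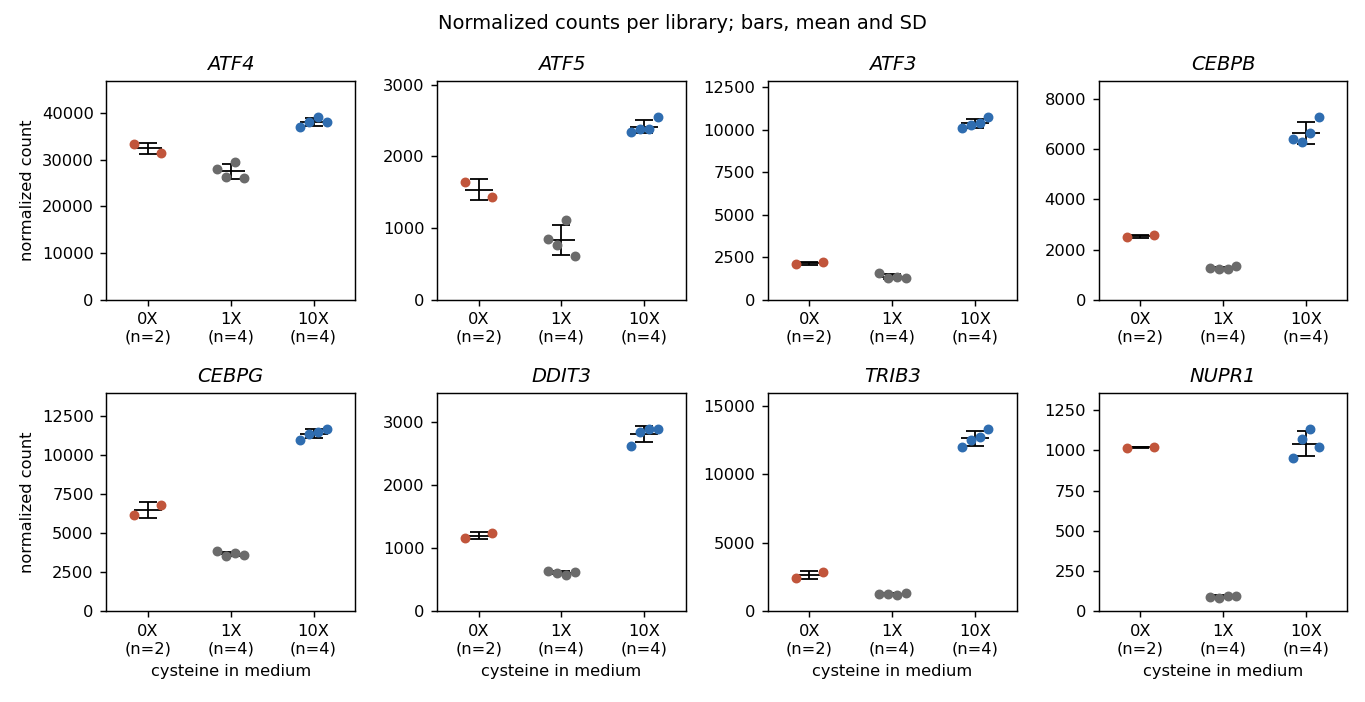
Normalized count of the 8 genes in each library (points) by cysteine in the medium, with the mean and SD per group as bars and a separate linear axis from 0 for each gene. In all 8 panels the complete libraries (1X) lie lowest, and in all but NUPR1 the excess libraries (10X) lie above both others.

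ATF4, the central factor of the response, lies at chr22:39519695-39522683 on the plus strand. Its normalized counts were 33323 and 31559 in cysteine-free medium, 27993, 26243, 29547 and 26177 in complete medium, and 37033, 38004, 39079 and 38057 in excess medium. The groups did not overlap, but the lowest cysteine-free library was only slightly above the highest complete library. The log2 fold change was 0.24 (SE 0.055, limma adjusted p = 5.30e-03) without cysteine and 0.47 (SE 0.039, adjusted p = 2.28e-08) with excess cysteine. The cysteine-free call was lost when any 1 of 4 libraries was left out, with 0.20 (adjusted p = 0.115) without cysteine-free replicate 1, 0.28 (0.041) without cysteine-free replicate 2, 0.25 (0.0115) without complete replicate 1 and 0.22 (0.026) without complete replicate 2. Of the tested genes, 8153 had a larger increase than ATF4 in cysteine-free medium. The annotation holds 4 ATF4 pseudogenes, whose reads can be split from or shared with those of ATF4. The largest, ATF4P3, had means of 811, 558 and 701 in cysteine-free, complete and excess medium, small beside the values of ATF4 itself.

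ATF5, a close relative of ATF4 whose mRNA is likewise translated during stress, lies at chr19:49928702-49933935 on the plus strand. It had 1638 and 1434 in cysteine-free medium, 843, 767, 1116 and 612 in complete medium, and 2339, 2384, 2384 and 2543 in excess medium. Its complete libraries were the most variable of the 8 genes, with a coefficient of variation of 25.2% (mean 835 ± 211, SD, n = 4), yet the groups remained separate. The log2 fold changes were 0.91 (SE 0.17, adjusted p = 1.21e-03) and 1.56 (SE 0.12, adjusted p = 7.44e-09). The cysteine-free call was lost without cysteine-free replicate 1 (0.81, adjusted p = 0.046) and without cysteine-free replicate 2 (1.005, adjusted p = 0.0219).

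ATF3, an immediate stress-induced bZIP factor, lies at chr1:212565334-212620777 on the plus strand. Its counts were 2077 and 2196 without cysteine, 1558, 1282, 1333 and 1273 in complete medium, and 10114, 10268, 10384 and 10718 in excess medium. The cysteine-free libraries were moderately above the complete ones, while the excess libraries formed a tight group far above both. The log2 fold change was 0.65 (SE 0.085, adjusted p = 1.06e-04) in cysteine-free medium, a rise of 1.57-fold, and it was 2.93 (SE 0.057, adjusted p = 2.39e-16) in excess medium, a rise of 7.64-fold. In cysteine-free medium 2814 tested genes rose by more than ATF3, but in excess medium only 118 did. Without cysteine-free replicate 2 the cysteine-free value was 0.61 with an adjusted p of 0.0103, just past the threshold.

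CEBPB, which encodes activating and inhibitory isoforms of a C/EBP factor, is a gene of a single exon at chr20:50190830-50192668 on the plus strand. It had 2486 and 2572 in cysteine-free medium, 1269, 1230, 1212 and 1339 in complete medium, and 6398, 6308, 6630 and 7267 in excess medium. The 3 groups formed separate steps. The log2 fold changes were 1.00 (SE 0.069, adjusted p = 5.67e-07) and 2.40 (SE 0.052, adjusted p = 9.20e-16).

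CEBPG, a C/EBP factor without a strong activation domain that pairs with ATF4, lies at chr19:33373685-33382686 on the plus strand. Its counts were 6123 and 6819 without cysteine, 3862, 3523, 3694 and 3595 in complete medium, and 10946, 11317, 11452 and 11637 in excess medium. The cysteine-free libraries lay between the other groups. The log2 fold changes were 0.82 (SE 0.062, adjusted p = 1.30e-06) and 1.63 (SE 0.040, adjusted p = 5.51e-15).

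DDIT3 encodes CHOP, the C/EBP-family factor best known for promoting cell death in prolonged endoplasmic reticulum stress, and lies at chr12:57516588-57521737 on the minus strand. It had 1158 and 1231 in cysteine-free medium, 637, 607, 576 and 627 in complete medium, and 2611, 2840, 2879 and 2881 in excess medium. Excess replicate 1 was lower than the other excess libraries, which were close together, and all 4 were above both other groups. The log2 fold changes were 0.97 (SE 0.083, adjusted p = 4.10e-06) and 2.19 (SE 0.055, adjusted p = 7.33e-15), or 1.95-fold and 4.58-fold.

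TRIB3, a pseudokinase induced by ATF4 and CHOP that restrains them in turn, lies at chr20:362835-397559 on the plus strand and carries the 3 repeated elements shown above. Its counts were 2462 and 2880 in cysteine-free medium, 1234, 1239, 1210 and 1363 in complete medium, and 11983, 12473, 12682 and 13292 in excess medium. The excess libraries were far above the rest. The log2 fold changes were 1.08 (SE 0.080, adjusted p = 1.05e-06), or 2.11-fold, and 3.32 (SE 0.047, adjusted p = 1.80e-17), or 9.99-fold.

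NUPR1, a chromatin-associated cofactor induced by many stresses, lies at chr16:28532708-28539008 on the minus strand. It had 1017 and 1023 in cysteine-free medium, 90.3, 82.8, 97.5 and 96.6 in complete medium, and 950.1, 1068, 1133 and 1020 in excess medium. The cysteine-free libraries lay inside the range of the excess libraries, and both were far above complete medium. The log2 fold changes were 3.46 (SE 0.13, adjusted p = 2.80e-09) and 3.49 (SE 0.089, adjusted p = 8.68e-15). Only 9 tested genes had a larger increase in cysteine-free medium and 54 in excess medium.

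The excess and cysteine-free libraries were then compared directly, which shares no control library and tests whether the media differ. Of the 8 genes 7 were higher in excess medium and passed the test, beside 48.0% of all tested genes called and 24.4% called higher. The rise was at least 2-fold for 4 of the 7, and the share of all tested genes at 2-fold was not counted. The median log2 fold change of the 8 was 1.02, beside 0.00 over all tested genes. ATF3 and TRIB3 differed most, at 4.85-fold and 4.73-fold (log2 fold change 2.28, SE 0.041, and 2.24, SE 0.050). CEBPB and DDIT3 followed with 2.63-fold and 2.34-fold, and CEBPG and ATF5 with 1.75-fold and 1.57-fold. ATF4 differed by 1.17-fold (log2 fold change 0.23, SE 0.034, adjusted p = 2.53e-06). NUPR1 was the exception, with a log2 fold change of 0.03 (SE 0.067, 95% interval -0.11 to 0.17, adjusted p = 0.738). That interval runs from 0.927-fold to 1.12-fold. Its sign turned in 2 alternatives, to -0.02 with the replicate block and to -0.01 without excess replicate 3.

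**Figure D3:**
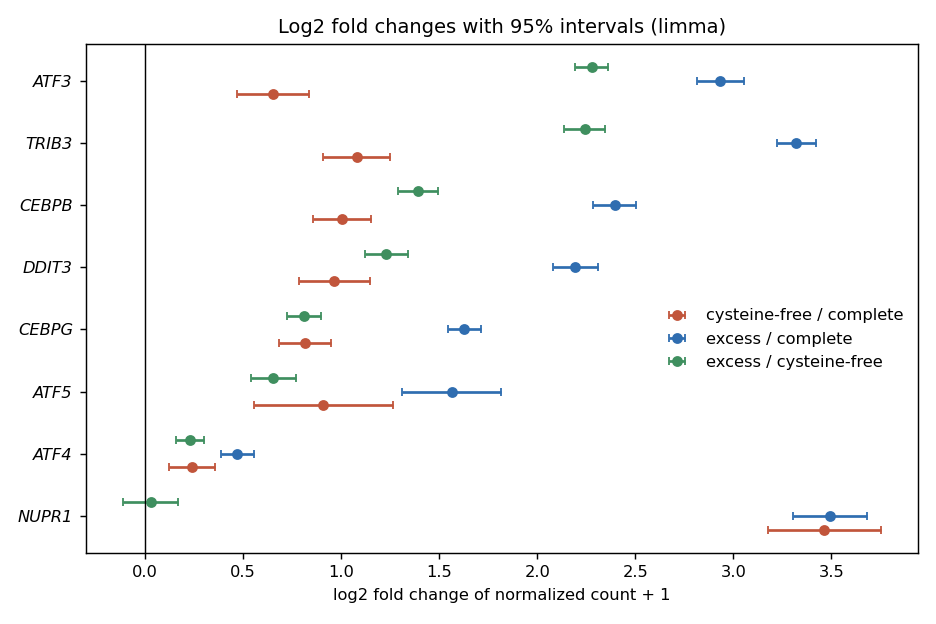
Log2 fold change of the normalized count plus 1 (x axis) with 95% intervals from limma for each gene in the 3 comparisons, ordered by the difference between excess and cysteine-free medium. ATF3 and TRIB3 are farthest right for excess over cysteine-free (2.28 and 2.24), and the interval of NUPR1 for that comparison spans 0 while its other differences are near 3.5.

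The order of abundance among the genes changed with the medium. Compared per kilobase of canonical transcript, ATF4 was highest in every medium, with 22862 ± 879 (SD, n = 2) normalized counts per kilobase in cysteine-free, 19373 ± 1134 (n = 4) in complete and 26810 ± 589 (n = 4) in excess medium. NUPR1 was lowest in every medium, at 193, 17.3 and 197 per kilobase, a level that rests on an annotated transcript of 5291 bases. In complete medium CEBPG followed ATF4 at 984 ± 39.4 per kilobase, and the next, ATF3, CEBPB and DDIT3, at 702, 687 and 677, overlapped in their libraries, as did TRIB3 and ATF5 below them. In cysteine-free medium the order after ATF4 was CEBPG, CEBPB, DDIT3, TRIB3, ATF3, ATF5 and NUPR1, with CEBPB overlapping DDIT3 and TRIB3 overlapping ATF3.

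In excess medium TRIB3 and ATF3 moved up to the places after ATF4, at 5351 ± 230 and 5346 ± 132 per kilobase, and overlapped each other. CEBPB stood at 3617 ± 235, above DDIT3 at 3104 ± 143 and CEBPG at 3040 ± 78.4, and the last 2 of these overlapped. Thus CEBPG was above CEBPB in cysteine-free and complete medium and below it in excess medium, without overlap. The same switch was found when all annotated exon bases were taken as the length, at 2795 for CEBPG and 3617 for CEBPB in excess medium and 904 and 687 in complete medium. The place of ATF3 in excess medium depended on the length used, being above CEBPB and CEBPG per canonical transcript and below both per all exon bases.

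Some of these genes share exon bases with neighbours. MARS1, which encodes the methionyl-tRNA synthetase, overlaps 27.2% of the exon bases of DDIT3 from the other strand and had a mean of 10231 in complete medium, beside 611 for DDIT3. NUP62 on the other strand shares 565 bases with ATF5, and CEBPB-AS1 shares 231 bases with CEBPB from the other strand. The library kit keeps strand, but the strand setting of the counting is not given in the sources used here, so reads of these pairs cannot be told apart. MIR4751, whose 74 bases all lie in an ATF5 exon, still had a mean of 40.8 in complete medium, so reads over both genes had not all been left out. An unnamed gene within NUPR1, ENSG00000289754, shares 92.8% of its exon bases with it and had 67.7 to 73.1% of its value in each medium. ATF4, ATF3, CEBPG and TRIB3 overlap no other annotated exon.

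Over the 10 libraries, with log2 values centred on complete medium, the members closest to each other were DDIT3 and CEBPB, which differed by a root mean square of 0.138. ATF5 and CEBPG came next at 0.210, then ATF3 and TRIB3 at 0.328, and ATF4 and NUPR1 were farthest apart at 2.39. Among 16106 other genes with a symbol, NIPAL3 was closest to ATF4 (0.034), LARP6 and TES to CEBPG (0.072 and 0.079), and NBR2 to DDIT3 (0.121). HMOX1, which encodes the heme-degrading enzyme heme oxygenase 1, and LAMP3 were closest to ATF3, at 0.175 and 0.184. MOSPD1 and DCLRE1A were closest to ATF5 (0.129 and 0.143), ANXA3 and NBR2 to CEBPB (0.169 and 0.178), and OSGIN1 and AKNA to TRIB3 (0.235 and 0.275). The second closest were PHF2 for ATF4 (0.044) and HRK for DDIT3 (0.185). For NUPR1 the closest gene, GDAP1L1, differed by 0.298 and the next, VLDLR-AS1, by 0.335. GDAP1L1 had a mean of 22.7 ± 6.1 (SD, n = 4) in complete medium, 265 in cysteine-free medium and 331 in excess medium.

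The bZIP family has many members outside this pathway. This list and those below were also chosen with earlier results of these data known. Of 45 other bZIP factors 43 were tested. In cysteine-free medium 9 rose, 4 fell and 30 did not pass, with a median difference of -0.02 on the log2 scale, and in excess medium 23 rose, 5 fell and 15 did not pass, with a median of 0.37. The 13 calls in cysteine-free medium became 5 without cysteine-free replicate 1 and 4 without cysteine-free replicate 2. HLF and JDP2, the latter a repressor that dimerizes with Jun proteins, rose most in cysteine-free medium, by 1.93 and 1.45 on the log2 scale. MAFK and TEF fell by 0.87 and 0.78. In excess medium FOSL2, a Fos-family partner of Jun, rose by 2.06 and NFIL3 by 1.71, while DBP and MAF fell by 0.90 and 0.84. TRIB1 and TRIB2 are paralogs of TRIB3. TRIB1 had -0.10 (adjusted p = 0.544) and TRIB2 0.09 (adjusted p = 0.570) in cysteine-free medium, and in excess medium they fell by 0.64 and 0.44. NUPR2, the paralog of NUPR1, was at 0 in all groups and was not tested.

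Upstream of ATF4, the genes of eIF2alpha phosphorylation showed no common direction, with 2 of 11 rising, 3 falling and 6 not passing in cysteine-free medium, and 4 rising, 3 falling and 4 not passing in excess medium. The 5 calls in cysteine-free medium became 1, 2 and 3 without cysteine-free replicate 1, cysteine-free replicate 2 and complete replicate 2. IMPACT, an inhibitor of the kinase GCN2, rose by 0.64 without cysteine, from a mean of 2399 to 3740. In excess medium IMPACT fell by 0.66, to 1519. EIF2AK4, which encodes GCN2 itself, was also lower there, with means of 2795, 2667 and 1699 in cysteine-free, complete and excess medium. PPP1R15A encodes GADD34, the stress-induced subunit of the phosphatase that reverses eIF2alpha phosphorylation, and is a known target of ATF4 and CHOP. It rose by 0.34 (SE 0.070, adjusted p = 2.69e-03) without cysteine and by 2.61 (SE 0.046, adjusted p = 8.95e-17) in excess medium, from 1556 to 9492. EIF2AK3, which encodes the kinase PERK, rose by 1.05 in excess medium, and OMA1, the mitochondrial protease that relays mitochondrial stress to HRI, fell by 1.10. EIF2S1, which encodes eIF2alpha itself, and PPP1R15B, the constitutive phosphatase subunit, fell by 0.40 and 0.29 without cysteine. In excess medium PPP1R15B had a mean of 9511, beside 5240 in complete medium. It was 1.15 higher in excess than in cysteine-free medium (SE 0.040, limma adjusted p = 1.01e-17).

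Next came lists of amino acid uptake, amino acid synthesis and tRNA charging, processes in which ATF4 is known to switch on genes. Whether ATF4 caused any of the changes was not tested. Of 9 amino acid transporters 8 rose in each medium and 1 did not pass, with medians of 0.78 and 1.02. SLC6A9, a glycine transporter, and SLC1A4, a neutral amino acid transporter, rose by 1.56 and 1.48 without cysteine, and SLC1A4 and SLC7A11, the cystine importer subunit, by 2.35 and 1.88 in excess medium. Of 13 genes of amino acid and one-carbon synthesis 12 rose in cysteine-free medium and 1 did not pass. In excess medium 10 rose, 1 fell and 2 did not pass. CTH, which makes cysteine from cystathionine, rose by 1.55 and 2.30, ALDH1L2 by 1.53 without cysteine and ASNS by 1.58 in excess medium, while ALDH18A1, of proline synthesis, fell by 0.56 there. Of 13 cytosolic aminoacyl-tRNA synthetases 11 rose and 2 did not pass without cysteine, and 12 rose and 1, VARS1, fell (by 0.72) in excess medium. WARS1 rose by 1.05 and 0.93, GARS1 by 0.91 without cysteine and CARS1, which charges tRNA with cysteine, by 0.92 in excess medium.

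In the direct comparison the lists of transporters, synthesis genes and synthetases had calls in both directions. Transporters had 4 genes higher, 1 lower and 4 not passing in excess over cysteine-free medium (median 0.10), synthesis genes 2 higher, 7 lower and 4 not passing (median -0.22), and synthetases 4 higher, 3 lower and 6 not passing (median -0.08). The 8 regulators had 7 higher and a median of 1.02. PYCR1, of proline synthesis, fell by 0.80 and VARS1 by 0.52 in this comparison, while SLC1A4 and CTH rose by 0.87 and 0.75. Under equal totals the transporters that passed went from 5 to 8.

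Stress effectors carry out the later steps of the response, from braking growth to signalling to other tissues. Of 13 stress effectors 12 rose without cysteine and 1 did not pass, and 12 rose and 1 fell in excess medium (medians 1.51 and 1.64). DDIT4, an inhibitor of the growth kinase mTORC1, and CHAC1, a glutathione-degrading enzyme, rose by 2.02 and 2.00 without cysteine. GDF15, a secreted stress cytokine, was the gene that did not pass there, with means of 34.5 and 36.1 in cysteine-free and complete medium and 1418 in excess medium, where it rose by 5.30. FGF21, a secreted metabolic hormone, rose by 4.74 in excess medium, from a mean of 15.2 to 352, and by 2.65 without cysteine, to 84.8. TXNIP, which encodes an inhibitor of thioredoxin, moved in opposite directions, rising by 0.80 (adjusted p = 5.07e-04) without cysteine and falling by 0.56 (adjusted p = 1.81e-04) in excess medium.

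Of 8 genes that CHOP is linked to in cell death and protein refolding 7 were tested. In cysteine-free medium 1 rose, 1 fell and 5 did not pass (median 0.16), while in excess medium 5 rose and 2 did not pass (median 1.08). TNFRSF10B, the death receptor DR5, fell by 0.44 (adjusted p = 1.85e-03) without cysteine and rose by 1.56 (adjusted p = 2.33e-12) in excess medium, with means of 3211, 4389 and 12859 in cysteine-free, complete and excess medium. PPP1R15A, described above, also belongs to this list. In the direct comparison 6 of the 7 were higher in excess medium and 1, ERO1A, did not pass, with TNFRSF10B 2.00 higher (SE 0.038, adjusted p = 5.62e-23). BCL2 was among the 6, with means of 348, 306 and 449 in cysteine-free, complete and excess medium. The list does not sort genes by the direction in which CHOP acts on them. Its counts of rises therefore do not measure the action of CHOP, which was not tested. DDIT3 itself rose in both media, as given above. Both cysteine-free calls of this list depended on single libraries, since 0 genes were called without cysteine-free replicate 1, without cysteine-free replicate 2 or without complete replicate 2, 1 without complete replicate 1 and 4 without complete replicate 3.

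**Figure D4:**
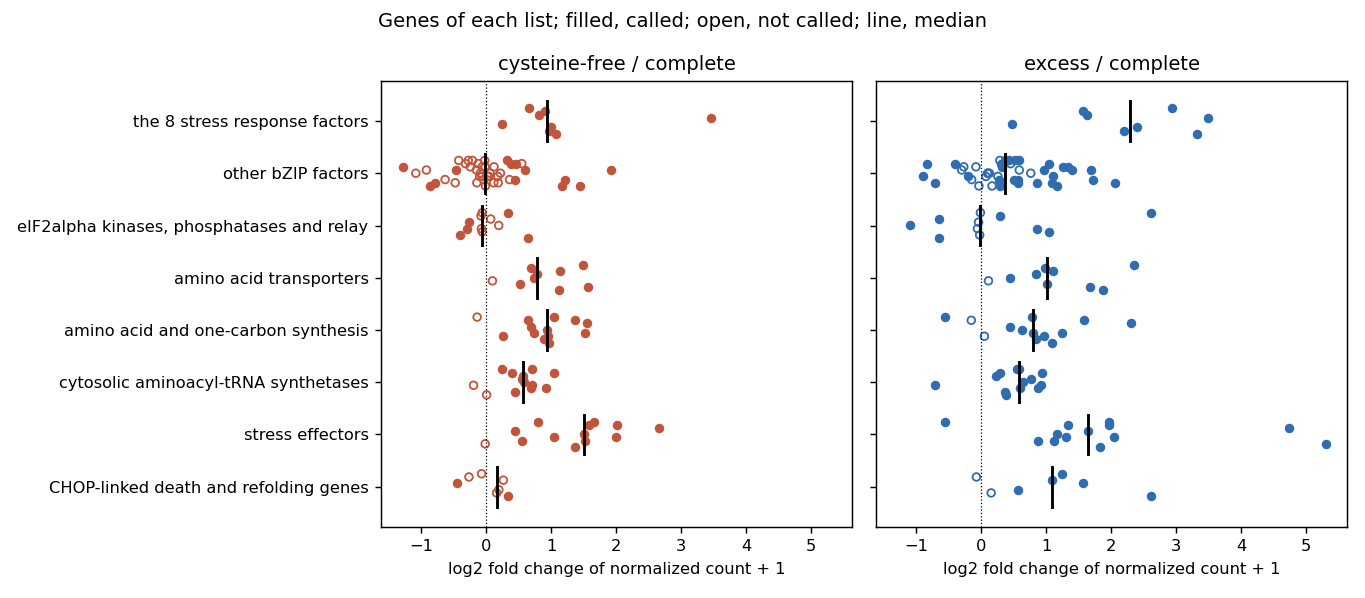
Log2 fold change of the normalized count plus 1 for each gene of the lists in cysteine-free (left) and excess medium (right) against complete medium, with filled points for called genes, open points for genes not called and a line at each list's median. Synthesis and synthetase genes have like medians in both panels (0.94 and 0.79, 0.57 and 0.58), while the 8 regulators (0.94 and 2.30) and the CHOP-linked genes (0.16 and 1.08) lie farther right in excess medium.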

How the data were processed

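The authors deposited 1 table with a normalized signal value per gene and library, which is the read count of the gene divided by a DESeq2 size factor of the library. The reads were aligned with STAR 2.7.10b to GRCh38. The study's methods name featureCounts and state that reads over several genes were discarded, while the submitters' processing notes list HTSeq. The annotation release and strand setting are not given in the sources used here. In each library 100% of values were whole multiples of 1 step, within 0.001 steps, from which reads were recovered.

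GENCODE release 44 holds 61463 of the 78894 IDs, the 8 genes among them. Genes with 10 or more in at least 3 libraries were kept (29045), and the 8 reached this in every library. Log2 of the deposited value plus 1 was fitted with limma 3.58.1 in R 4.3.3 (lmFit, eBayes with trend, only the groups compared, 2-sided), and genes were called at a Benjamini-Hochberg adjusted p of 0.01 or less. The members and lists were chosen with earlier results of these data known. All 8 members are named. From each list the called genes with the 2 largest increases and 2 largest decreases and a mean of 100 or more are named for the comparisons with complete medium and some for the direct one, and for each member the 2 genes most like it. The fit was also run on simulated counts of independent libraries, which say nothing about effects shared by the cultures of a group. Alternatives were pseudocounts of 0.5 and 10, no filter, filters of 10 in 2 and 50 in 3 libraries, equal totals, quantile normalization, all groups in 1 fit, a replicate block, edgeR 4.0.16 and DESeq2 1.42.0 on recovered reads, and leaving out each library. Sequences were read from hg38 and RefSeq promoter windows.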

Additional observations from a re-analysis of the deposited data

Results flagged for a closer look

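DDIT3 in excess replicate 1 stood apart from the other excess libraries, at 2611 where the others had 2840 to 2881, which left a gap of 0.847 times the group's range. This was 1 of 16 groups of 4 libraries examined, and chance alone flags about 5% of such groups. All 4 excess libraries remained above every other library.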

How the results depend on the processing

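Of 424 values of the 8 genes under the alternatives, 415 kept their direction and side of the threshold, 7 lost the call and 2 turned in sign. The lost calls were those of ATF4, ATF5 and ATF3 in cysteine-free medium that are named beside these genes, each without a single library. The sign turned for NUPR1 between excess and cysteine-free medium, from 0.03 to -0.018 with the replicate block (adjusted p = 0.858) and to -0.012 without excess replicate 3 (adjusted p = 0.894). Its values without single libraries ran from -0.012 to 0.072, and equal totals gave 0.11. Without single libraries the genes called in cysteine-free medium ran from 978 to 6300 around 4618, with 1198 without cysteine-free replicate 1, 978 without replicate 2, and 2968 and 2795 without complete replicates 1 and 2, and the members called ran from 5 to 8. Leaving out a cysteine-free library leaves 1 library, which is then assumed to vary like the complete ones. For the CHOP-linked list in cysteine-free medium, quantile normalization, all groups in 1 fit, the replicate block and DESeq2 each gave 4 calls in place of 2. Same-numbered libraries of different groups did not deviate together, with correlations of -0.116 to 0.103 over 8 pairs, and 2 of 4 complete libraries correlated best with their own number, so numbers were not taken as pairs. The replicate block gave 6532, 13392 and 12393 genes called and 8, 8 and 7 members in the 3 comparisons. Depth was not varied.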

Other observations

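Complete replicate 3 was highest and replicate 4 lowest for ATF5 (1116 and 612), and the same libraries were highest and lowest for NUP62 (5402 and 4776), IL4I1 (487 and 363), MIR4751 (61.9 and 13.2), MARS1 (11343 and 9425) and ATF4 (29547 and 26177). This order was not particular to these genes: it held for 3915 of the 29045 tested genes (13.5%), the most frequent of the 12 possible choices of highest and lowest complete library, and these libraries were also the least alike pair of replicates (chi-square per degree of freedom 14.7). CEBPB and TRIB3 had the same libraries at their extremes in the opposite order, with replicate 4 highest and replicate 3 lowest. That opposite order held for 12.1% of tested genes. For the other 6 members the ratios of highest to lowest lay between 1.10 and 1.22. Of the ATF4 pseudogenes, ATF4P1 and ATF4P2 had values between 2.18 and 26.5 in all libraries, and ATF4P4 had means of 165, 133 and 146 in cysteine-free, complete and excess medium.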
